A study of Mus musculus with 21 samples.

Results

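The 10 genes most often used to identify retinal ganglion cells were followed by RNA sequencing in sorted mouse ganglion cells 3 days after the optic nerve was crushed. They are Rbpms, Pou4f1, Pou4f2, Pou4f3, Slc17a6, Nefl, Nefm, Nefh, Sncg and Thy1. They were taken by name, and all 10 were among the 17164 genes of the authors' count table and among the 16797 that passed the filter on low counts. The cells were labelled as retinal ganglion cells of C57BL/6 mice 6 to 7 weeks old. They had received guide RNAs against a transcription factor or a control guide, and every animal had the crush, so no group shows the uninjured state. The groups were the knockouts of ATF3 (ATF3-KO, 5 libraries, batch 3, female mice), ATF4 (ATF4-KO, 2 libraries, batch 1, 1 female and 1 male), CEBPG (CEBPG-KO, 4 libraries, batch 3, female) and CHOP (CHOP-KO, 5 libraries, batch 3, female), and the control guide (4 libraries, batch 2, male). Batch and sex are as the submitters' sample sheet gives them. How the guides and the nuclease were delivered, and the gate of the sort, are not stated in the sources used here. The question was what the loss of each factor does to these genes.

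Ganglion cells are the output neurons of the retina, and their axons form the optic nerve. Several of the genes are needed to build or run such a neuron, and the others are known mainly as labels. Rbpms encodes an RNA-binding protein found in nearly all ganglion cells. Pou4f1, Pou4f2 and Pou4f3 encode the BRN3 POU-domain transcription factors, which direct ganglion cell differentiation, dendrite form and axon growth. Slc17a6 encodes VGLUT2, the transporter that fills synaptic vesicles with glutamate. Nefl, Nefm and Nefh encode the light, medium and heavy neurofilament subunits, which assemble into the filaments that set axon calibre. Sncg encodes gamma-synuclein, and Thy1 encodes a glycoprotein anchored to the cell surface. After axon injury ganglion cells are known to lose many of these transcripts while they activate ATF3, ATF4, C/EBP gamma and CHOP, factors of the cellular stress response that bind DNA as dimers.

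Sequences upstream of the transcription start were available for 4 of the genes, in 5 windows of 250 bases (RefSeq, GRCm38.p6). A pair of them is printed, Slc17a6 because it holds the 1 match found and Sncg because that gene differed from the controls in 3 of the knockouts. The window before the second annotated start of Slc17a6 is chr7:51624387-51624636 on the plus strand, and that before Sncg is chr14:34374670-34374919 on the minus strand, both 5′ to 3′. Capitals mark a match to ATAATTAAT, a binding site of the BRN3 factors, which lies on the minus strand 83 to 75 bases before the start.
Slc17a6: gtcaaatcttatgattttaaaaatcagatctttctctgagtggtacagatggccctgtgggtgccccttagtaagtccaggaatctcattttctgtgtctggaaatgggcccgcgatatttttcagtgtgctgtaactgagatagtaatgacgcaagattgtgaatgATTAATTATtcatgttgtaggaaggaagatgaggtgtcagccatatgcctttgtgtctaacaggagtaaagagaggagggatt
Sncg: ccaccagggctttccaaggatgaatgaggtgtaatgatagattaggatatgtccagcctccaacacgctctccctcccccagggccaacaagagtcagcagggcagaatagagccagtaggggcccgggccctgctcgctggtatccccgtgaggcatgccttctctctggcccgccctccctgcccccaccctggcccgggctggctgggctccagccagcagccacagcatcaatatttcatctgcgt
Both strands were searched. The BRN3 site was in 1 of the 5 windows and in 0.274% of all 32851 windows. The cyclic AMP response element TGACGTCA was in 0 of the 5 windows (1.79% of all), as were the AP-1 site TGANTCA (7.81%) and the composite C/EBP-ATF site TGATGNAAT (0.965%). A match is a stretch of letters and does not show binding.

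The libraries held 6401446 to 32776378 counted reads, with 25267560 to 32776378 in ATF3-KO and 6401446 to 11752828 in the controls. Against the controls, the effect of a knockout, that of its batch and, save for ATF4-KO, that of sex cannot be told apart, whereas ATF3-KO, CEBPG-KO and CHOP-KO shared batch and sex. CEBPG-KO replicates 6 and 8 lay far from the rest on component 4 of expression (scores -99.3 and 102.1, 7.01% of the variance). Of the targeted genes, Atf3 was lower in ATF3-KO (38.3 ± 6.68 CPM) than in the controls (113 ± 9.28 CPM; log2 fold change -1.56, SE 0.25, adjusted p = 2.41e-05), and Atf4 in ATF4-KO (154 ± 7.96 CPM) than in the controls (301 ± 71.7 CPM; -0.97, SE 0.18, adjusted p = 0.000211). Ddit3, which encodes CHOP, was lower in CHOP-KO (-0.43, SE 0.12, adjusted p = 0.00908), and Cebpg in CEBPG-KO did not pass (-0.16, SE 0.16, adjusted p = 0.491). None of these falls was confined to the targeted group. Atf3 averaged 36.9 ± 14.6 CPM in CHOP-KO, as low as in ATF3-KO. Mean Atf4 was lower still in the other knockouts, at 87.9 ± 8.35 CPM in ATF3-KO, 130 ± 13.9 CPM in CEBPG-KO and 106 ± 10.4 CPM in CHOP-KO. Ddit3 averaged 61.9 ± 3.24 CPM in ATF3-KO and 66.5 ± 8.47 CPM in CEBPG-KO, close to 65.5 ± 6.13 CPM in CHOP-KO. By edgeR, Cebpg was lower than in the controls in ATF3-KO (-0.42, adjusted p = 0.0386), ATF4-KO (-0.63, adjusted p = 0.0223) and CHOP-KO (-0.58, adjusted p = 0.00529). It was higher in CEBPG-KO than in CHOP-KO (0.42, adjusted p = 0.0475, edgeR). A small edit need not lower a transcript, so these counts do not check the labels.

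The identity genes made up a very small part of every library. Together they took 0.0569% ± 0.000953 of the counted reads in ATF3-KO, 0.0509% ± 0.000497 in ATF4-KO, 0.0447% ± 0.00541 in CEBPG-KO and 0.0504% ± 0.00493 in CHOP-KO, and 0.0447% ± 0.00617 in the controls (mean ± SD over libraries). Most of that was the neurofilament genes. The other 7 genes took 0.00579%, 0.0204%, 0.0103% and 0.00786% of the reads in ATF3-KO, ATF4-KO, CEBPG-KO and CHOP-KO, against 0.0112% in the controls. By this share the ATF4-KO libraries lay above and the ATF3-KO libraries below all others of the 20.

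**Figure D1:**
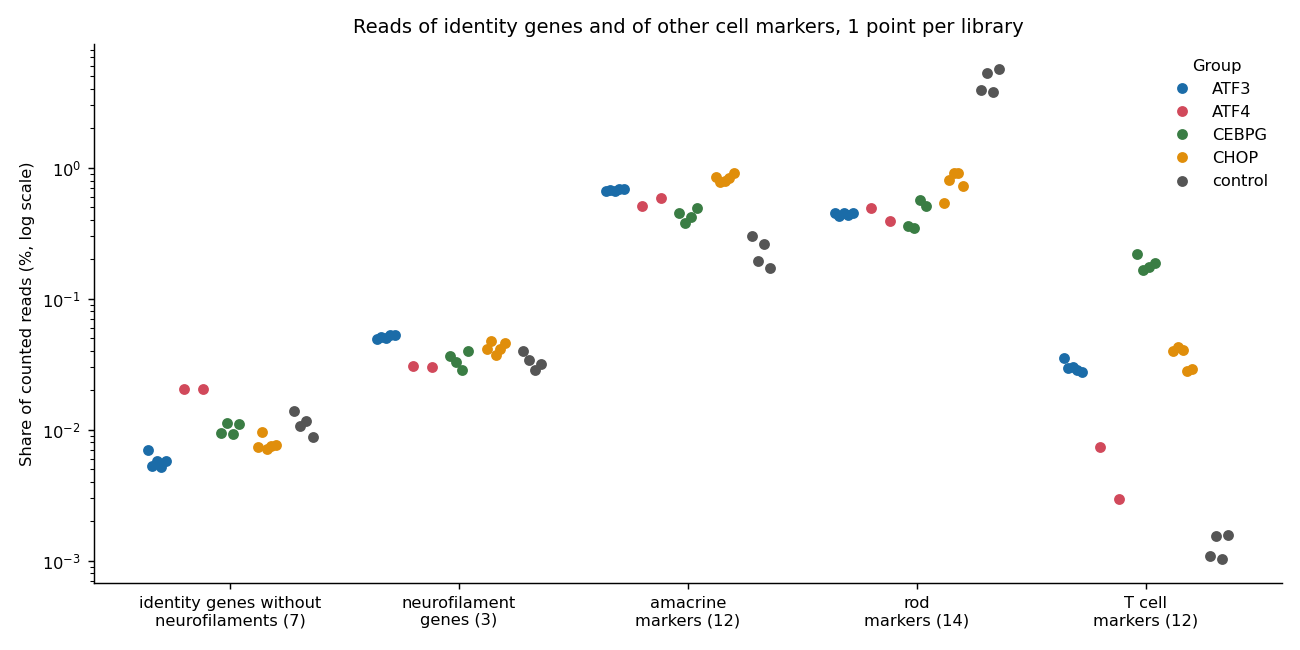
Share of counted reads (percent, log axis) taken by 7 identity genes other than neurofilaments, by the 3 neurofilament genes, and by markers of amacrine cells, rods and T cells, with 1 point per library and colours for the groups, which are named by the factor knocked out. The amacrine markers stand above both sets of identity genes in every library, and the rod markers are highest in the controls (3.81% to 5.74%).

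The cells were labelled as ganglion cells, and their defining transcripts were present, but markers of some other retinal cells took a larger share of the reads. Amacrine markers (12 of 12 measured) took 0.665% to 0.687% of the reads in ATF3-KO, 0.512% to 0.591% in ATF4-KO, 0.378% to 0.49% in CEBPG-KO and 0.779% to 0.909% in CHOP-KO, and 0.173% to 0.301% in the controls. Rod markers (14 of 14) took 0.426% to 0.451%, 0.395% to 0.49%, 0.347% to 0.569% and 0.537% to 0.909% in the same knockouts, against 3.81% to 5.74% in the controls. All 14 rod markers were lower in each knockout, and 11, 11, 10 and 11 of the 12 amacrine markers were higher in ATF3-KO, ATF4-KO, CEBPG-KO and CHOP-KO. None of these markers was at 0 in all libraries of a group. Müller glia markers (13 of 13) took 1.28%, 1.31%, 1.0% and 0.724% in the knockouts and 0.772% in the controls. Against control 3, 9, 3 and 1 of the 13 were higher and 4, 0, 6 and 7 were lower in the same knockouts. In ATF3-KO and CEBPG-KO their share was thus higher although more of these genes were lower than higher. Of all genes 18.6%, 16.6%, 18.3% and 18.1% were higher and 14.8%, 14.6%, 15.0% and 15.4% lower. Microglia markers (14 of 14) took 0.692%, 0.786%, 0.898% and 0.544% in the knockouts and 0.653% in the controls. Against control 2, 5, 8 and 1 of the 14 were higher and 0, 1, 0 and 5 were lower. These groups of markers moved with the groups of libraries, and their part in the values of the identity genes was not tested. In bulk samples fewer ganglion cells and less RNA of a gene per cell cannot be told apart.

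Among themselves the identity genes spanned a wide range of levels per length. As RPKM, counted reads divided by exon length and by library depth, the controls had Nefl at 80.0 ± 12.5, Sncg at 42.0 ± 12.9, Slc17a6 at 7.93 ± 2.06, Nefm at 7.91 ± 1.73 and Nefh at 7.03 ± 1.05 (SD, n = 4). Rbpms followed at 3.49 ± 1.57 and Thy1 at 2.15 ± 0.589 RPKM. The POU factors were lowest, with Pou4f1 at 0.991 ± 0.464, Pou4f2 at 0.47 ± 0.384 and Pou4f3 at 0.317 ± 0.343 RPKM. Nefl led in 4 of the 5 groups on this scale, and Sncg in ATF4-KO stood at 77.7 ± 14.5 RPKM, against 66.0 ± 1.78 RPKM of Nefl there.

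The identity genes did not move as a block. In ATF3-KO 8 of the 10 passed the test against control, 5 lower (Rbpms, Pou4f1, Slc17a6, Nefh, Sncg) and 3 higher (Nefl, Nefm, Thy1), where 33.4% of all genes tested were called (14.8% lower, 18.6% higher). In ATF4-KO 4 passed, all higher (Rbpms, Pou4f1, Sncg, Thy1), against 31.3% of all genes (16.6% higher, 14.6% lower), and 0 were lower, also at an unadjusted p below 0.05 and by DESeq2. In CEBPG-KO 4 passed, 3 lower (Pou4f2, Slc17a6, Nefh) and 1 higher (Thy1), against 33.4% of all genes. With only CEBPG-KO and control in the fit 3 passed, and Pou4f2 did not pass the filter on low counts. In CHOP-KO 5 passed, 3 lower (Rbpms, Nefh, Sncg) and 2 higher (Nefm, Thy1), against 33.5% of all genes (18.1% higher, 15.4% lower). These are calls of edgeR's quasi-likelihood test at a Benjamini-Hochberg adjusted p below 0.05 over all 16797 genes. The share of the 10 genes called in ATF4-KO, CEBPG-KO and CHOP-KO was thus near that of all genes. The median log2 fold change of the 10 genes was -1.09 in ATF3-KO, 0.69 in ATF4-KO, -0.29 in CEBPG-KO and -0.65 in CHOP-KO, and over all genes it was 0.06, 0.00, 0.06 and 0.01. The 4 comparisons share their control libraries. Without CEBPG-KO replicates 6 and 8, a choice made after seeing the data, 2 of the 10 passed in CEBPG-KO (Slc17a6 lower, Thy1 higher).

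Within batch 3, where knockouts shared batch and sex, both comparisons with CEBPG-KO held calls and that of ATF3-KO with CHOP-KO held none. Against CHOP-KO 4 of the 10 genes passed, Rbpms and Sncg higher and Slc17a6 and Nefm lower in CEBPG-KO, where 26.7% of all genes were called. In ATF3-KO against CEBPG-KO 6 passed, Nefl and Nefm higher and Rbpms, Pou4f1, Sncg and Thy1 lower, where 20.4% of all genes were called (10.1% higher). Without CEBPG-KO replicates 6 and 8 that count was 3, with 1 higher (Nefm) and 2 lower (Rbpms, Sncg). Between ATF3-KO and CHOP-KO 0 of the 10 passed in edgeR, where 2.26% of all genes were called (1.51% higher, 0.756% lower). At an unadjusted p below 0.05 there were 6 (2 higher, 4 lower in ATF3-KO), and DESeq2 called 0. With only those 2 groups in the fit, 2 passed, Slc17a6 lower (-0.72, adjusted p = 0.0053) and Nefl higher (0.30, adjusted p = 0.0105) in ATF3-KO.

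**Figure D2:**
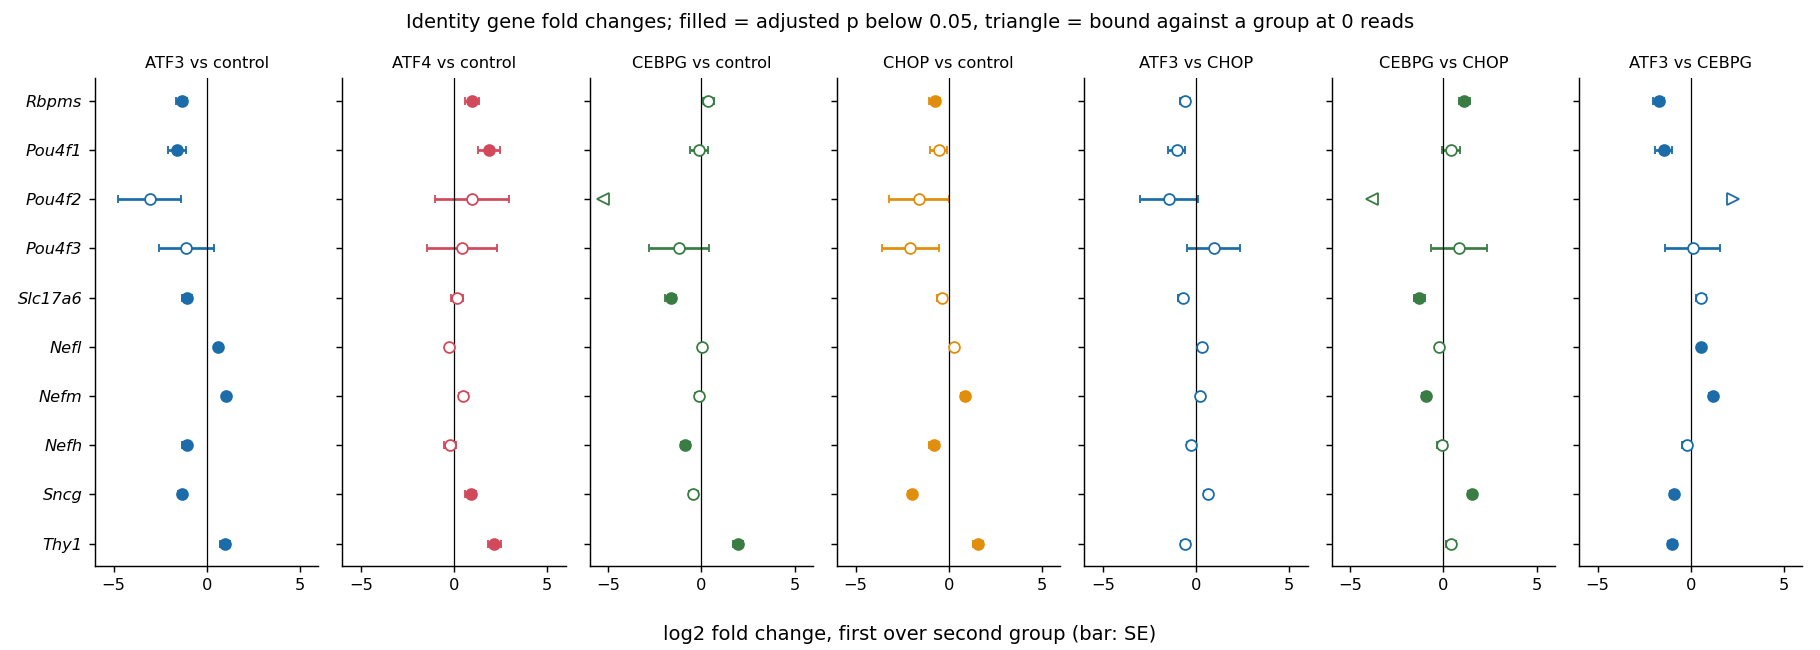
Log2 fold change of each identity gene (first group over second, bars are SE) in 7 comparisons. Filled points passed edgeR's test, and triangles are bounds for Pou4f2 against the CEBPG-KO libraries, all at 0 reads. Thy1 lies to the right in all 4 comparisons against control, while Sncg lies to the left in ATF3-KO and CHOP-KO and to the right in ATF4-KO.

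Rbpms, the RNA-binding protein gene, was highest in ATF4-KO and lowest in ATF3-KO. It was at 11.6, 6.51, 6.63, 11.2 and 9.03 CPM (counts scaled to library depth by TMM, in order of replicate number) in ATF3-KO libraries and 43.2 and 45.5 CPM in the ATF4-KO libraries. The CEBPG-KO libraries had 42.3, 20.6, 35.3 and 19.6 CPM and the CHOP-KO libraries 14.1, 15.4, 10, 11.9 and 16 CPM. The controls had 36.3, 25.6, 14 and 15.5 CPM. All ATF3-KO libraries lay below and both ATF4-KO libraries above every control, while the ranges of CEBPG-KO and CHOP-KO overlapped the control range. The control values fell into a higher pair (replicates 4 and 5) and a lower pair (replicates 7 and 8). Rbpms fell in ATF3-KO (log2 fold change -1.34, SE 0.29, adjusted p = 0.000812). Its rise in ATF4-KO (0.96, SE 0.36, adjusted p = 0.0456) was lost without either ATF4-KO library or without control replicate 5, 7 or 8 (adjusted p = 0.141, 0.166, 0.0721, 0.114 and 0.141) and with DESeq2's size factors (adjusted p = 0.0541). Its fall in CHOP-KO (-0.76, SE 0.29, adjusted p = 0.0447) did not hold when CHOP-KO replicate 1, 3 or 4 was left out (adjusted p = 0.0523, 0.0903 and 0.0682), nor without control replicate 5 (adjusted p = 0.0818) or 4 (-0.44, adjusted p = 0.268), nor with scaling to total counts (adjusted p = 0.0582). In CEBPG-KO the difference did not pass (0.36, SE 0.30, adjusted p = 0.386). Inside batch 3, Rbpms was higher in CEBPG-KO than in CHOP-KO (1.12, SE 0.29, adjusted p = 0.005) and lower in ATF3-KO than in CEBPG-KO (-1.71, SE 0.29, adjusted p = 0.00015), with no overlap in either. The gene (mm10 chromosome 8, 33782643 to 33929863, minus strand) overlaps the antisense gene Gm26632 and, inside an intron on its own strand, Gm26978. Reads of Gm26632 cannot be told apart from its own without strand.

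**Figure D3:**
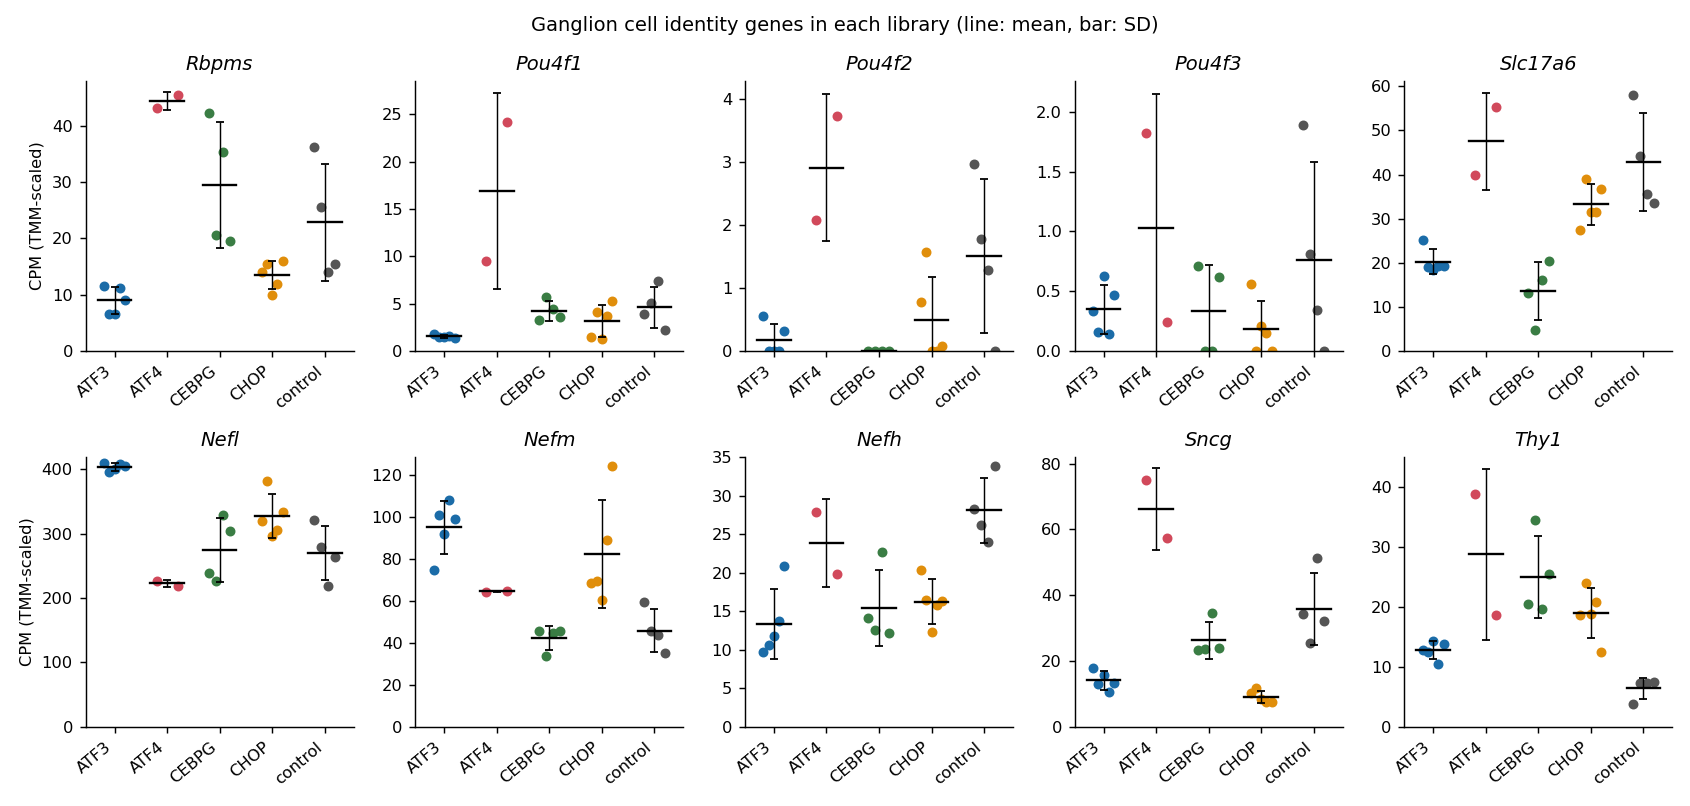
Level of each identity gene in every library (CPM scaled by TMM, linear axes from 0), with points for libraries, a line for the group mean and a bar for the SD. The ATF4-KO libraries are above every control for Rbpms, Pou4f1, Nefm, Sncg and Thy1, and Pou4f2 is at 0 in all 4 CEBPG-KO libraries.

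The POU factor genes were scarce, and of them only Pou4f1 (chromosome 14, 104461676 to 104467999, minus strand) was read in all 20 libraries. Pou4f1 was at 1.8, 1.49, 1.42, 1.53 and 1.41 CPM in ATF3-KO and 9.54 and 24.2 CPM in the ATF4-KO libraries. In CEBPG-KO libraries Pou4f1 was at 3.24, 5.68, 4.39 and 3.58 CPM, and in CHOP-KO libraries at 1.47, 4.08, 1.31, 3.74 and 5.28 CPM. The controls had 3.87, 5.02, 7.4 and 2.23 CPM. The ATF3-KO libraries lay close together below every control, and both ATF4-KO libraries lay above every control, the higher at 24.2 CPM in replicate 3. Pou4f1 fell in ATF3-KO (log2 fold change -1.59, SE 0.48, adjusted p = 0.0121), a call lost without control replicate 7 (-1.27, adjusted p = 0.0614). It rose in ATF4-KO (1.86, SE 0.58, adjusted p = 0.0168), a call lost without ATF4-KO replicate 3 (1.04, adjusted p = 0.374) or control replicate 8 (1.59, adjusted p = 0.0559). The values of CEBPG-KO and CHOP-KO overlapped those of the controls (-0.13, SE 0.50, adjusted p = 0.874 in CEBPG-KO and -0.54, SE 0.47, adjusted p = 0.415 in CHOP-KO). Pou4f1 was lower in ATF3-KO than in CEBPG-KO (-1.46, SE 0.47, adjusted p = 0.0302), which did not hold when ATF3-KO replicate 6, 7, 8 or 9 was left out (adjusted p = 0.0577, 0.0609, 0.0581 and 0.0614), nor CEBPG-KO replicate 8 (adjusted p = 0.0745).

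Pou4f2 (chromosome 8, 78433010 to 78436645, minus strand), the BRN3 gene most needed for ganglion cell survival in mice, had no read in any CEBPG-KO library. It was at 0.551, 0, 0, 0 and 0.313 CPM in ATF3-KO and 2.08 and 3.73 CPM in the ATF4-KO libraries. The CHOP-KO libraries had 0.77, 1.57, 0, 0 and 0.0832 CPM. The controls had 2.97, 1.78, 1.28 and 0 CPM. In all it had 0 reads in 10 of the 20 libraries, including 3 of 5 ATF3-KO, 2 of 5 CHOP-KO and 1 of 4 control libraries, so the CEBPG-KO range touches the others at 0. Against 3 reads summed over the CEBPG-KO libraries, Pou4f2 was at least 38.4-fold lower in CEBPG-KO than in the controls (adjusted p = 0.0176). That call was lost without CEBPG-KO replicates 6 and 8 (adjusted p = 0.0676) and with a replicate block (adjusted p = 0.234). With only these 2 groups in the fit Pou4f2 did not pass the filter on low counts, so it was not tested. Against CHOP-KO the bound was at least 14.5-fold lower and did not pass in edgeR (adjusted p = 0.0526), though it did in DESeq2 (adjusted p = 0.0273) and in edgeR without CHOP-KO replicate 3 or 4 (adjusted p = 0.0419 and 0.0449). In ATF3-KO the level was at least 4.8-fold higher than in CEBPG-KO, which did not pass (adjusted p = 0.14). The bounds cover counting error only. Isl2, a LIM factor gene of a ganglion cell subset, was also at 0 in all 4 CEBPG-KO libraries and at least 38.4-fold lower than in the controls on the same floor (adjusted p = 0.000396). Pou4f3, the third factor, was at 0 to 1.89 CPM throughout with 138 reads in all 20 libraries, and passed in none of the 7 comparisons. Its group means lay between 0.184 ± 0.23 CPM in CHOP-KO and 1.03 ± 1.12 CPM in ATF4-KO.

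Slc17a6, the vesicular glutamate transporter gene, fell in ATF3-KO and CEBPG-KO. It was at 25.2, 19.1, 18.3, 19.2 and 19.3 CPM in ATF3-KO and 39.8 and 55.3 CPM in the ATF4-KO libraries. The CEBPG-KO libraries had 13.2, 4.72, 16.1 and 20.3 CPM and the CHOP-KO libraries 27.5, 38.9, 31.6, 31.4 and 36.8 CPM. The controls had 58, 44.1, 35.6 and 33.5 CPM. Every ATF3-KO and every CEBPG-KO library lay below every control, and CEBPG-KO replicate 8 was the lowest of all. Slc17a6 fell in ATF3-KO (log2 fold change -1.08, SE 0.27, adjusted p = 0.00286) and CEBPG-KO (-1.65, SE 0.29, adjusted p = 9.41e-05). The values of ATF4-KO and CHOP-KO overlapped the controls (0.15, SE 0.34, adjusted p = 0.786 in ATF4-KO and -0.36, SE 0.27, adjusted p = 0.321 in CHOP-KO). Within batch 3 it was lower in CEBPG-KO than in CHOP-KO (-1.29, SE 0.28, adjusted p = 0.00124). The ATF3-KO libraries lay below the CHOP-KO libraries without overlap, a difference that did not pass (-0.72, SE 0.25, adjusted p = 0.169), and overlapped the CEBPG-KO libraries (0.57, SE 0.27, adjusted p = 0.148). With CEBPG-KO replicate 10 left out the last difference passed (0.84, adjusted p = 0.0412). The gene (chromosome 7, 51622006 to 51671119, plus strand) overlaps another annotated gene, Gm45072. Its relative Slc17a7, the VGLUT1 gene of photoreceptors and bipolar cells, fell in all 4 knockouts, to 495 ± 8.14, 705 ± 138, 215 ± 54.9 and 376 ± 45.0 CPM in ATF3-KO, ATF4-KO, CEBPG-KO and CHOP-KO, against 1152 ± 154 CPM in the controls.

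The neurofilament genes did not change alike, and in ATF3-KO Nefl and Nefm rose while Nefh fell. Nefl, the light subunit, was at 410, 396, 400, 408 and 405 CPM in ATF3-KO and 227 and 219 CPM in the ATF4-KO libraries. In CEBPG-KO libraries Nefl was at 239, 227, 329 and 304 CPM and in CHOP-KO libraries at 320, 382, 296, 306 and 333 CPM. The controls had 321, 279, 219 and 263 CPM. The ATF3-KO libraries lay close together and above all 15 other libraries. Nefl rose in ATF3-KO against control (log2 fold change 0.58, SE 0.12, adjusted p = 0.000466) and was higher there than in CEBPG-KO (0.56, SE 0.12, adjusted p = 0.00141, and 0.34, adjusted p = 0.0698 without CEBPG-KO replicates 6 and 8). In CHOP-KO it did not pass (0.28, SE 0.12, adjusted p = 0.0723), but passed without control replicate 4 (0.37, adjusted p = 0.0214) and with scaling to total counts or to the upper quartile (adjusted p = 0.0275 and 0.0455). In ATF4-KO and CEBPG-KO it stood at -0.28, SE 0.15, adjusted p = 0.18 and at 0.02, SE 0.12, adjusted p = 0.909.

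Nefm, the medium subunit, was at 74.8, 101, 91.8, 108 and 98.9 CPM in ATF3-KO and 64.3 and 64.4 CPM in the ATF4-KO libraries. The CEBPG-KO libraries had 45.5, 33.4, 44.4 and 45.5 CPM and the CHOP-KO libraries 68.5, 69.5, 60.2, 89.1 and 124 CPM. The controls had 59.2, 45.5, 43.4 and 35 CPM. ATF3-KO, ATF4-KO and CHOP-KO libraries all lay above the highest control, CHOP-KO replicate 3 by a small margin, and CEBPG-KO overlapped the controls. Nefm rose in ATF3-KO (log2 fold change 1.05, SE 0.19, adjusted p = 0.000135) and CHOP-KO (0.85, SE 0.19, adjusted p = 0.00116), while in ATF4-KO it did not pass (0.49, SE 0.24, adjusted p = 0.123), though it did without control replicate 4 (0.64, adjusted p = 0.049). In CEBPG-KO it stood at -0.12, SE 0.20, adjusted p = 0.691. Within batch 3 it was lower in CEBPG-KO than in CHOP-KO (-0.96, SE 0.19, adjusted p = 0.00052) and higher in ATF3-KO than in CEBPG-KO (1.17, SE 0.19, adjusted p = 0.000102), with no overlap in either. Nefl lies inside the annotated span of Nefm on the opposite strand of chromosome 14 (Nefl 68083863 to 68089095, Nefm 68082590 to 68124846). They share 1108 exon bases, 32.8% of the Nefl and 19.2% of the Nefm exons. How reads there were counted is not stated in the sources used here, so the split between the 2 genes is uncertain.

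Nefh (chromosome 11, 4938754 to 4948064, minus strand), the heavy subunit, which is added to neurofilaments as axons mature, fell in ATF3-KO, CEBPG-KO and CHOP-KO. It was at 9.63, 10.6, 11.8, 13.7 and 20.9 CPM in ATF3-KO and 27.9 and 19.8 CPM in the ATF4-KO libraries. The CEBPG-KO libraries had 14.1, 12.6, 22.7 and 12.2 CPM and the CHOP-KO libraries 20.4, 16.4, 12.3, 15.8 and 16.3 CPM. The controls had 28.3, 26.2, 24 and 33.8 CPM. Every ATF3-KO, CEBPG-KO and CHOP-KO library lay below every control, and ATF4-KO overlapped them. Nefh fell in ATF3-KO (log2 fold change -1.07, SE 0.25, adjusted p = 0.00153), CEBPG-KO (-0.86, SE 0.26, adjusted p = 0.0135) and CHOP-KO (-0.79, SE 0.25, adjusted p = 0.0155), and the CEBPG-KO call was lost without CEBPG-KO replicates 6 and 8 (-0.65, adjusted p = 0.129). In ATF4-KO it stood at -0.23, SE 0.32, adjusted p = 0.636. Between the knockouts of batch 3 it passed in none of the comparisons, at -0.28, -0.07 and -0.21 for ATF3-KO against CHOP-KO, CEBPG-KO against CHOP-KO and ATF3-KO against CEBPG-KO. Horizontal cells of the retina also hold neurofilaments. Their markers (8 of 8 measured) took 0.0482% to 0.0505% of the reads in ATF3-KO, 0.0705% to 0.0723% in ATF4-KO, 0.055% to 0.0646% in CEBPG-KO and 0.0466% to 0.051% in CHOP-KO, and 0.0476% to 0.0795% in the controls. Against control 4 of the 8 were lower in ATF3-KO, 0 in ATF4-KO, 3 in CEBPG-KO and 3 in CHOP-KO. In CEBPG-KO 1 was higher, and 0 were higher in the other knockouts. The median log2 fold changes were -0.76, -0.5, -0.88 and -0.76 in the same order. Of all genes 14.8%, 14.6%, 15.0% and 15.4% were lower. Of the 8, 1 was at 0 in all CEBPG-KO libraries, and the part of horizontal cells in these values was not tested.

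Sncg, the gamma-synuclein gene (chromosome 14, 34370274 to 34374789, minus strand), was highest in ATF4-KO and lowest in CHOP-KO. It was at 17.8, 12.9, 15.7, 10.4 and 13.4 CPM in ATF3-KO and 74.9 and 57.4 CPM in the ATF4-KO libraries. In CEBPG-KO libraries Sncg was at 23.2, 23.5, 34.7 and 23.8 CPM and in CHOP-KO libraries at 10.2, 11.8, 8.35, 7.43 and 7.57 CPM. The controls had 34.4, 25.3, 51.2 and 32.2 CPM. ATF3-KO and CHOP-KO libraries lay below and the ATF4-KO libraries above every control, while the CEBPG-KO range overlapped the control range. Sncg fell in CHOP-KO (log2 fold change -1.98, SE 0.23, adjusted p = 2.59e-07) and ATF3-KO (-1.35, SE 0.22, adjusted p = 4.34e-05). It rose in ATF4-KO (0.89, SE 0.28, adjusted p = 0.0168), a call lost without ATF4-KO replicate 1 or control replicate 5 or 8 (adjusted p = 0.203, 0.0694 and 0.0526). In CEBPG-KO it did not pass (-0.44, SE 0.23, adjusted p = 0.151). Within batch 3, Sncg was higher in CEBPG-KO than in CHOP-KO (1.54, SE 0.22, adjusted p = 1.81e-05) and lower in ATF3-KO than in CEBPG-KO (-0.90, SE 0.22, adjusted p = 0.00464). Its relative Sncb, beta-synuclein, rose in ATF3-KO, ATF4-KO and CHOP-KO (0.56, 2.04 and 0.63), so the synuclein genes did not change alike.

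Thy1 (chromosome 9, 44043384 to 44048579, plus strand) rose in all 4 knockouts. It was at 12.8, 12.4, 14.3, 10.4 and 13.8 CPM in ATF3-KO and 38.9 and 18.7 CPM in the ATF4-KO libraries. The CEBPG-KO libraries had 20.4, 34.5, 19.7 and 25.4 CPM and the CHOP-KO libraries 18.6, 23.9, 18.8, 20.8 and 12.5 CPM. The controls had 3.78, 7.29, 7.23 and 7.41 CPM. All 16 knockout libraries lay above the highest control. Thy1 rose in ATF3-KO (log2 fold change 0.99, SE 0.27, adjusted p = 0.00658), ATF4-KO (2.17, SE 0.33, adjusted p = 2.14e-05), CEBPG-KO (1.96, SE 0.29, adjusted p = 9.25e-06) and CHOP-KO (1.56, SE 0.28, adjusted p = 9.39e-05). In ATF4-KO the value was 1.55 without ATF4-KO replicate 1, with adjusted p = 0.00559. Within batch 3 it was lower in ATF3-KO than in CEBPG-KO (-0.98, SE 0.26, adjusted p = 0.00821), which did not hold once CEBPG-KO replicates 6 and 8 were left out (-0.84, adjusted p = 0.0642).

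In mice Thy1 is also a surface protein of T cells, and T cell markers moved with it. Of 16 listed markers 12 were measured, and 12, 11, 12 and 12 of these were higher in ATF3-KO, ATF4-KO, CEBPG-KO and CHOP-KO. They took 0.0277% to 0.0353% of the reads in ATF3-KO, 0.00297% to 0.00733% in ATF4-KO, 0.165% to 0.219% in CEBPG-KO and 0.0282% to 0.0425% in CHOP-KO, and 0.00103% to 0.00156% in the controls. The T cell receptor subunit gene Cd3g was at 63.0 ± 5.13 CPM in ATF3-KO, 6.48 ± 8.13 CPM in ATF4-KO, 325 ± 60.3 CPM in CEBPG-KO and 74.2 ± 13.8 CPM in CHOP-KO, against 0.821 ± 0.181 CPM in the controls. The order was not the same for both, since ATF4-KO had the highest mean of Thy1 and the lowest share of T cell reads among the knockouts. None of the 12 markers was at 0 in all libraries of a group. The part of T cells in the Thy1 values was not tested.

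Ratios between identity genes within a library do not depend on how libraries are scaled. In all, 6 ratios, with 0.5 reads added, were compared in the 7 comparisons by two-sided exact permutation tests over libraries, which makes 42 tests. With 5 libraries against 4, or 5 against 5, the smallest p these tests can give is 0.00794. For ATF4-KO it is 0.0667, so that comparison could not pass. For CEBPG-KO against control it is 0.0286, which could pass once adjusted only if many of the 42 tests were as low. There the lowest adjusted p was 0.0889 (exact permutation), so none passed. The 8 ratios that passed all had an exact permutation p = 0.00794, adjusted p = 0.0417, and groups that did not overlap. That adjusted value depends on the number of tests at the smallest p. With any 1 library of the compared groups left out no ratio passed. Most comparisons then have a higher smallest p, such as 0.0286 for 4 libraries against 4. This loss therefore does not show how stable a ratio is.

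The heavy subunit was low relative to the light one in ATF3-KO and CHOP-KO. The log2 ratio of Nefh to Nefl was -5.41, -5.22, -5.09, -4.89 and -4.27 in ATF3-KO and -3.97, -4.54, -4.59, -4.28 and -4.35 in the CHOP-KO libraries. In the controls it was -3.50, -3.41, -3.19 and -2.96. Every ATF3-KO and CHOP-KO library lay below every control, with mean differences of -1.71 for ATF3-KO and -1.08 for CHOP-KO on the log2 scale (both p = 0.00794, adjusted p = 0.0417, exact permutation). The CEBPG-KO libraries also lay below the controls without overlap, with a mean difference of -0.92 (p = 0.0286, adjusted p = 0.0889, exact permutation).

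The other ratios set Rbpms against 3 genes. The log2 ratio of Slc17a6 to Rbpms was -1.68, -2.12, -1.13 and 0.06 in the CEBPG-KO libraries, against 0.97, 1.34, 1.65, 1.40 and 1.20 in the CHOP-KO libraries. It was 1.12, 1.55, 1.47, 0.78 and 1.09 in ATF3-KO libraries. The CEBPG-KO libraries lay below both, with a mean difference of -2.53 for CEBPG-KO minus CHOP-KO and of 2.42 for ATF3-KO minus CEBPG-KO on the log2 scale (both p = 0.00794, adjusted p = 0.0417, exact permutation). Sncg to Rbpms was lower in CHOP-KO than in the controls (a difference of -1.28), and higher, by 1.24, in ATF3-KO than in CHOP-KO (both adjusted p = 0.0417, exact permutation). That last difference, inside batch 3, stands beside an edgeR test in which neither gene passed. Thy1 to Rbpms was higher than in the controls by 2.30 in ATF3-KO and 2.25 in CHOP-KO (both adjusted p = 0.0417, exact permutation). The ratios Nefm to Nefl and Pou4f1 to Pou4f2 passed in none of the 7 comparisons.

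**Figure D4:**
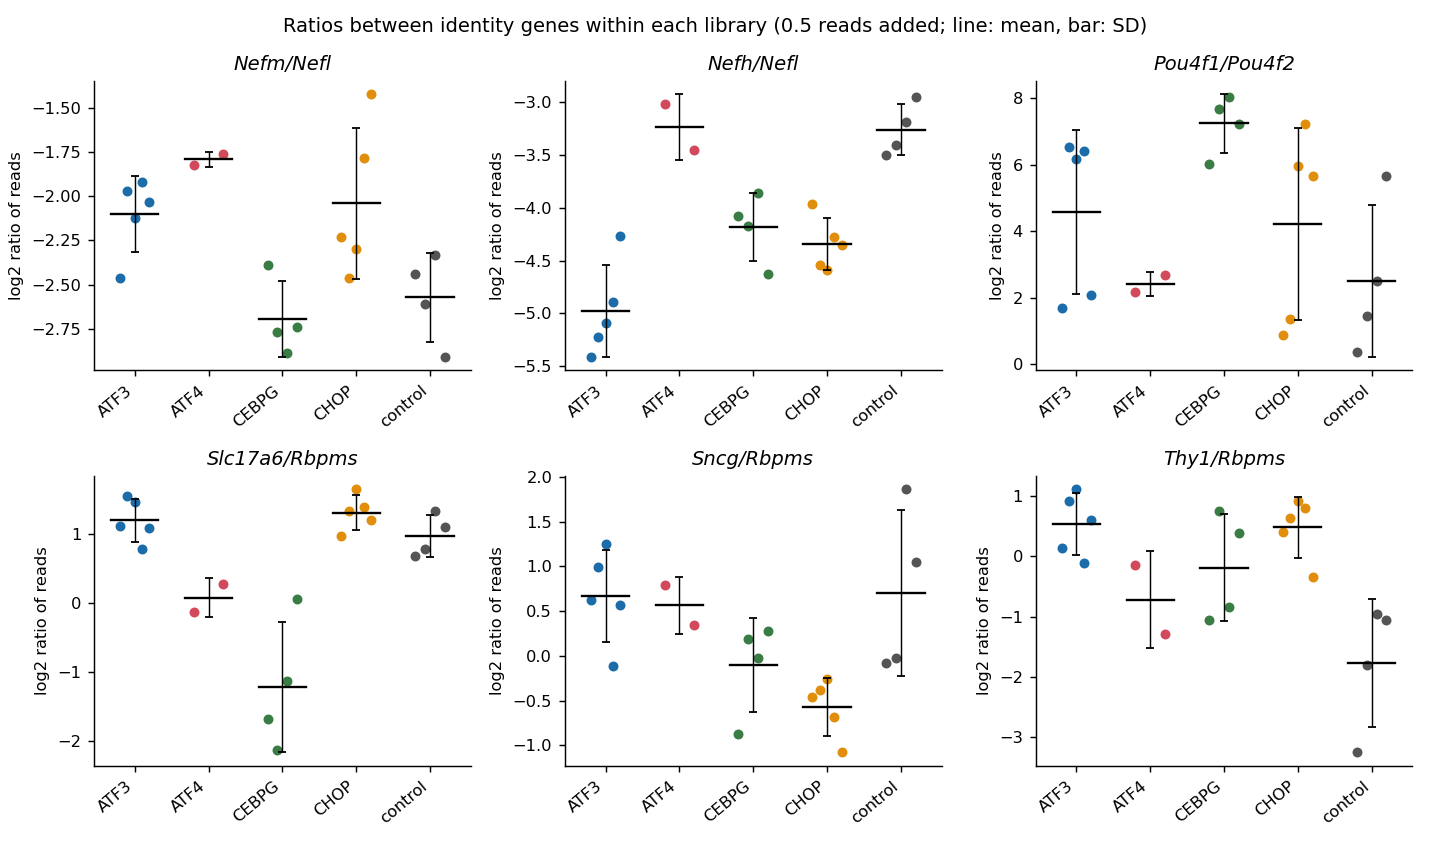
Log2 ratio of reads of a pair of identity genes in every library (0.5 reads added), with points for libraries, a line for the group mean and a bar for the SD. For Nefh/Nefl all ATF3-KO libraries (-5.41 to -4.27) lie below all controls (-3.50 to -2.96), and for Slc17a6/Rbpms 3 of the 4 CEBPG-KO libraries (-2.12 to -1.13) lie below all others.

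Other genes of ganglion cells and their axons did not follow the identity genes in every knockout. Of 23 other ganglion cell genes tested, 10 rose and 2 fell in ATF3-KO, 13 rose and 0 fell in ATF4-KO, 5 rose and 4 fell in CEBPG-KO and 11 rose and 3 fell in CHOP-KO, with medians of 0.30, 0.89, -0.13 and 0.49. Of all genes tested, 18.6%, 16.6%, 18.3% and 18.1% rose and 14.8%, 14.6%, 15.0% and 15.4% fell in the same knockouts. The counts of this list in CEBPG-KO were near those shares. Elavl3, a neuronal RNA-binding protein gene, rose in ATF3-KO (54.2 against 24.3 CPM, log2 fold change 1.15, SE 0.16, adjusted p = 4.18e-06), ATF4-KO (2.32) and CHOP-KO (1.80). It is also made by amacrine cells, whose markers rose in all 4 knockouts, CEBPG-KO included, and their part in its rise was not tested. Nrn1, a neurite growth factor gene, fell in ATF3-KO (6.58 against 21.3 CPM, log2 fold change -1.70, SE 0.34, adjusted p = 0.000442) and CHOP-KO (-1.05). Isl1, a LIM factor gene of ganglion, bipolar and cholinergic amacrine cells, fell in CHOP-KO (24.8 against 88.9 CPM, log2 fold change -1.84, SE 0.34, adjusted p = 0.000172) and CEBPG-KO (-1.42). Bipolar cell markers (12 of 12 measured, none at 0 in all libraries of a group) took 0.173% to 0.197% of the reads in ATF3-KO, 0.153% to 0.172% in ATF4-KO, 0.0534% to 0.0908% in CEBPG-KO and 0.069% to 0.0964% in CHOP-KO, and 0.136% to 0.198% in the controls, so they were low where Isl1 was low, and their part in its fall was not tested. Against CHOP-KO 10 of the 23 were lower and 0 higher in CEBPG-KO, where 13.2% of all genes were lower and 13.5% higher. Among the 10 was Chrna6, a nicotinic receptor subunit gene (38.1 against 90.3 CPM, log2 fold change -1.25, SE 0.18, adjusted p = 1.76e-05).

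Of 26 genes of the axonal cytoskeleton and transport, 14 rose and 3 fell in ATF3-KO, 14 rose and 3 fell in ATF4-KO, 8 rose and 4 fell in CEBPG-KO and 17 rose and 2 fell in CHOP-KO, with medians of 0.37, 0.61, 0.01 and 0.59. Of all genes 18.6%, 16.6%, 18.3% and 18.1% rose and 14.8%, 14.6%, 15.0% and 15.4% fell there. The tubulin gene Tubb2a rose in ATF3-KO (474 against 219 CPM, log2 fold change 1.11, SE 0.12, adjusted p = 9.38e-08), ATF4-KO (1.41) and CHOP-KO (1.13). The kinesin gene Kif5c rose in ATF3-KO (1.23), CEBPG-KO (1.19) and CHOP-KO (1.47). Map1b, a microtubule-associated protein gene of growing axons, fell in all 4 knockouts (-0.85, -0.78, -1.07 and -0.71 in ATF3-KO, ATF4-KO, CEBPG-KO and CHOP-KO). Ina, the alpha-internexin gene, whose product joins the neurofilament, rose in ATF3-KO (144 against 66.4 CPM, log2 fold change 1.12, SE 0.18, adjusted p = 3.77e-05), ATF4-KO (1.17) and CHOP-KO (1.20). Against CHOP-KO 16 of the 26 were lower and 1 higher in CEBPG-KO, where Nefm was lower as well. In that comparison 13.2% of all genes were lower and 13.5% higher. Amacrine markers took 0.437% of the reads in CEBPG-KO and 0.836% in CHOP-KO, and T cell markers 0.187% and 0.036%. Microglia markers took 0.898% and 0.544%, and 12 of these 14 genes were higher and 0 lower in CEBPG-KO than in CHOP-KO. The part of these cells in the counts of both lists was not tested. Between ATF3-KO and CHOP-KO, where 2.26% of all genes were called, 1 of the 26 passed. It was the dynein gene Dync1h1, lower in ATF3-KO (94.4 against 151 CPM, log2 fold change -0.68, SE 0.15, adjusted p = 0.0154).

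**Figure D5:**
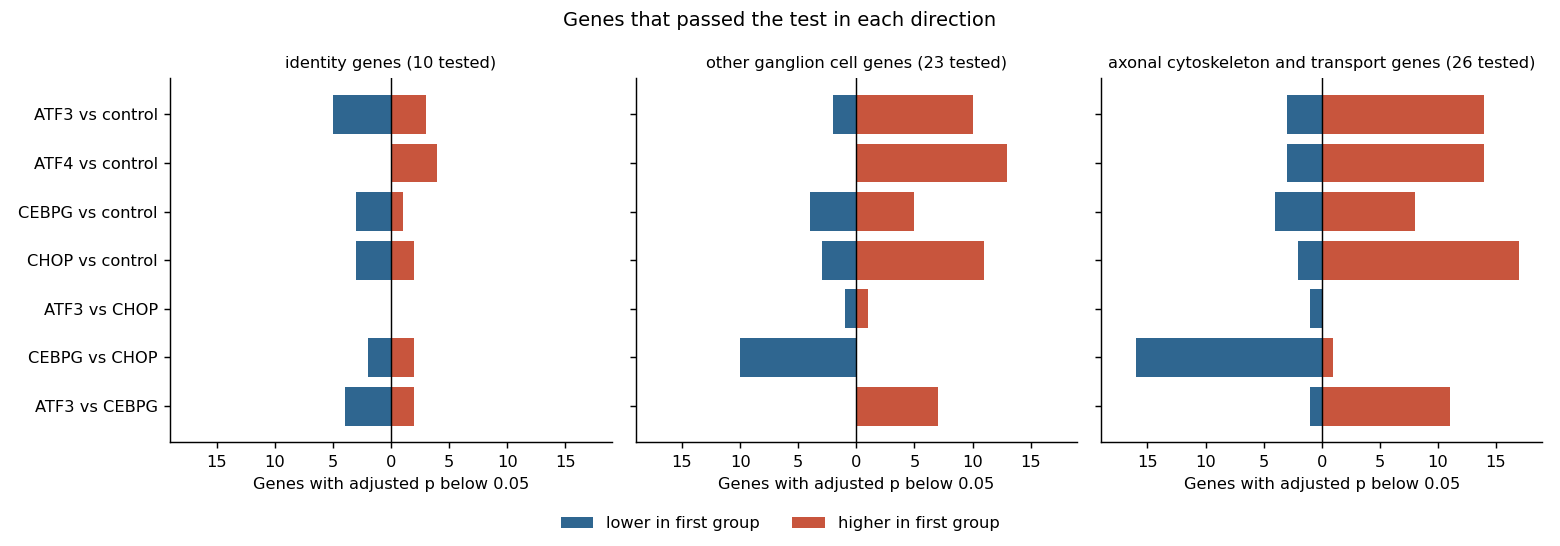
Number of genes that passed edgeR's test in each of 7 comparisons, lower in the first group to the left and higher to the right, for the 10 identity genes, 23 other ganglion cell genes and 26 genes of the axonal cytoskeleton and transport. In CEBPG-KO against CHOP-KO 10 and 16 genes of the other lists are lower, while the identity genes split into 2 lower and 2 higher. Of all genes 13.2% were lower and 13.5% higher in that comparison.

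For each identity gene the gene whose group means ran most like its own was found. Likeness was the root mean square difference of centred log2 CPM over the 5 group means, among 8962 genes, and is a description only. Rbpms was nearest to Klf4, a transcription factor gene (0.25), Pou4f1 to Inf2 (0.22) and Sncg to Kctd11 (0.33). Slc17a6 was nearest to Cdkn1c (0.13), Thy1 to Maf (0.13), Nefm to App, the amyloid precursor protein gene (0.06) and Nefh to Dtx3 (0.05). Pou4f3 was nearest to Gngt2 (0.11) and Nefl to 1810013L24Rik (0.06). Pou4f2 came nearest to Rbpms2 (0.66), a gene of the same family as Rbpms and itself made in ganglion cells.

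In the authors' deposited table, with logFC taken as log2, fewer identity genes were called. It called Nefm (2.85, FDR 0.0146) and Thy1 (2.81, FDR 0.0038) in ATF3-KO, where 7.99% of its genes were called. The authors' deposited table called Thy1 in CEBPG-KO (3.07, FDR 1.49e-05; 22.1% of its genes) and Nefm (2.69, FDR 0.0466) and Thy1 (3.16, FDR 0.00407) in CHOP-KO (7.30% of its genes). It called 0 of the 10 in ATF4-KO (5.77% of its genes), where edgeR called 4 here. The signs of the authors' deposited table matched those here for 5, 8, 6 and 6 of the 10 genes in ATF3-KO, ATF4-KO, CEBPG-KO and CHOP-KO. Sncg in the authors' deposited table was at 0.55 in ATF3-KO and -0.04 in CHOP-KO (FDR 0.758 and 0.99), against -1.35 and -1.98 here. The log base, model and covariates of that table are not stated in the sources used here.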

How the data were processed

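Raw gene counts of 21 libraries and 17164 genes were deposited by the authors. Per the submitters' processing notes the tools were STAR, Picard, HTSeq and edgeR on build mm10, with no version given. The annotation and the strand setting were not stated in the sources. Libraries were made with SMART-Seq from papain-dissociated, sorted cells, per the labels' protocols, a kit that does not mark strand. The authors' deposited table of comparisons gives log fold changes, taken as log2, and FDR values (adjusted p-values). The sample sheet gives sex, batch and duplicate fraction (48.0% to 57.6% as percent, from the deposited values). Another 37 columns of per-sample values were not used.

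Groups follow the titles. One library with a control title and a CHOP-KO genotype was left out. No label says that libraries came from different animals. The p-values therefore measure only how libraries vary, which may be technical. Within groups, chi-square values per gene were at least 12.9 (genes with 20 or more reads in the pair), so no pair agreed within counting error. This takes PCR duplicates as separate reads and does not show that libraries are biological replicates.

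The tests used edgeR 4.0.16 under R 4.3.3. Of the genes, filterByExpr (minimum count 10) dropped 367 and left 16797, and TMM scaled the libraries. A single quasi-likelihood fit (robust, 15 residual degrees of freedom) held all 20 libraries, with a biological coefficient of variation of 0.407. Comparisons were contrasts of this fit, with Benjamini-Hochberg adjustment over all genes tested and calls at adjusted p below 0.05. Each SE is approximate, the absolute log2 fold change divided by the square root of the test's F statistic. RPKM use exon lengths of GENCODE on mm10. A group at 0 was given a floor of 3 reads summed over the group. The fit was run on simulated counts with few genes changed per knockout, as many up as down, and no batch difference. Far more genes were called against control here, so that run does not check the calls of these data. Alternatives were other scalings, no filter, only the compared groups, a replicate block, DESeq2 1.42.0, 5 reads added to ratios and each library left out. All 10 genes are named. Of other lists up to 3 called genes per direction by adjusted p could be named. The genes and lists were chosen with earlier results of these data known.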

Additional observations from a re-analysis of the deposited data

Results flagged for a closer look

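In each group of 4 or 5 libraries, the highest or lowest library was checked against the spread of the others for each identity gene with reads. Of 39 such groups 4 had a library that stood apart, where chance gives about 1 in 20. Slc17a6 was at 25.2 CPM in ATF3-KO replicate 5, against 18.3 to 19.3 CPM in the other ATF3-KO libraries. Nefm was at 33.4 CPM in CEBPG-KO replicate 8, against 44.4 to 45.5 CPM in the other CEBPG-KO libraries. Sncg was at 34.7 CPM in CEBPG-KO replicate 9, against 23.2 to 23.8 CPM in the others of that group. Thy1 was at 3.78 CPM in control replicate 4, against 7.23 to 7.41 CPM in the other controls. Without control replicate 4 the Thy1 rises stayed past the threshold in all 4 knockouts.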

How the results depend on the processing

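Under alternatives other than leaving out a library, 476 values of single genes kept their direction and side of the threshold, 20 lost and 5 gained the call, and 11 turned round. No label says what the replicate numbers mean, and libraries of the same number did not deviate together (correlations -0.05 to 0.03). With a replicate block, 0 identity genes and 1322 of all genes were called in ATF4-KO and 3 and 2719 in CHOP-KO. The block gave 3081 of all genes in CEBPG-KO against control, 11 in ATF3-KO against CHOP-KO, 1895 in ATF3-KO against CEBPG-KO, and 2 identity genes and 517 of all in CEBPG-KO against CHOP-KO. It turned round Pou4f3 in ATF3-KO (0.64) and ATF4-KO (-3.47), Pou4f2 in ATF4-KO (-2.22), Pou4f1 in CEBPG-KO (0.35) and CHOP-KO (0.04), Nefl in CEBPG-KO (-0.03), and Pou4f2 (2.75) and Nefm (-0.16) in ATF3-KO against CHOP-KO. With only the compared groups fitted, ATF3-KO against CHOP-KO gave 2 identity genes and 1232 of all, and Nefl in CEBPG-KO turned to -0.01. DESeq2 gave 676 of all genes in ATF3-KO against CHOP-KO. Without CEBPG-KO replicates 6 and 8 the identity genes called were 2 in CEBPG-KO against control and 3 in ATF3-KO against CEBPG-KO, and Nefm in CEBPG-KO (0.01) and Nefh in CEBPG-KO against CHOP-KO (0.14) turned round. With 5 reads added, the ratio Pou4f1/Pou4f2 turned to 0.71 in ATF4-KO and -0.07 in ATF3-KO against CHOP-KO. The cause of these changes was not tested.

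With 1 library left out at a time, 7 to 8 identity genes were called in ATF3-KO, 1 to 5 in ATF4-KO, 4 to 4 in CEBPG-KO and 4 to 5 in CHOP-KO. Within batch 3 they were 0 to 0 in ATF3-KO against CHOP-KO, 4 to 5 in CEBPG-KO against CHOP-KO and 5 to 7 in ATF3-KO against CEBPG-KO. Of all genes 4586 to 5479, 3358 to 5592, 4840 to 5530 and 4731 to 5468 were called in ATF3-KO, ATF4-KO, CEBPG-KO and CHOP-KO, and 232 to 353, 3792 to 4345 and 2781 to 3438 in the 3 comparisons within batch 3, in the same order. Ratios that passed were 0 to 0 in each comparison when 1 of its own libraries was left out. Values that turned round ranged, in ATF4-KO, from -1.62 to 1.46 (Pou4f3), -0.10 to 0.37 (Slc17a6), -0.20 to 0.24 (Nefh/Nefl), -0.78 to 0.99 (Pou4f1/Pou4f2) and -0.40 to 0.25 (Sncg/Rbpms). In CEBPG-KO they ranged from -0.39 to 0.19 (Pou4f1), -0.08 to 0.12 (Nefl) and -0.26 to 0.03 (Nefm), and in ATF3-KO from -0.30 to 0.35 (Sncg/Rbpms). Nefh in CEBPG-KO against CHOP-KO ranged from -0.31 to 0.04. In ATF3-KO against CEBPG-KO Pou4f3 ranged from -0.33 to 0.74 and Nefh from -0.43 to 0.04. In ATF3-KO against CHOP-KO Nefm/Nefl ranged from -0.17 to 0.09, Pou4f1/Pou4f2 from -0.48 to 1.10 and Thy1/Rbpms from -0.15 to 0.21.

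The control libraries are shallow and Pou4f2 and Pou4f3 have few reads, so changes in them were hardly detectable at this depth. No batch holds both a knockout and controls. ATF4-KO have 2 libraries.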

Other observations

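Prph encodes peripherin, an intermediate filament protein that joins neurofilaments in axons and is made by a subset of ganglion cells. It was higher in ATF3-KO than in CEBPG-KO (9.67 against 0.283 CPM, log2 fold change 4.90, SE 1.19, adjusted p = 0.00457), which shared batch and sex. Its range was 7.51 to 10.8 CPM in ATF3-KO, above the highest value in ATF4-KO (2.76), CEBPG-KO (1.13) and CHOP-KO (2.28) and in the controls (2.72 CPM). Prph in ATF3-KO did not pass against control (2.7, SE 1.06, adjusted p = 0.0543) or against CHOP-KO (3.58, SE 1.01, adjusted p = 0.0638). Of all 16 relatives of the identity genes tested, 5 rose and 2 fell in ATF3-KO, 6 rose and 1 fell in ATF4-KO, 5 rose and 2 fell in CEBPG-KO and 4 rose and 1 fell in CHOP-KO. Of all genes 33.4%, 31.3%, 33.4% and 33.5% were called in these knockouts, so the counts of relatives were not far from the shares of all genes. Gfap, the filament gene of activated glia, rose in ATF3-KO (44.5 against 20.7 CPM, log2 fold change 1.11, SE 0.24, adjusted p = 0.000731) and CEBPG-KO (0.92), as did Vim, the vimentin gene, in CEBPG-KO (142 against 76.5 CPM, log2 fold change 0.90, SE 0.17, adjusted p = 0.000234).

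A library has a title of the control group and a genotype label of CHOP-KO, and entered no comparison. It held 33665965 counted reads, more than any other library, and the identity genes took 0.00808% of them. Rbpms was at 15.1, Pou4f1 at 0.587, Slc17a6 at 10.8, Sncg at 5.32 and Thy1 at 1.36 CPM in it. Nefl was at 33.0, Nefm at 4.98 and Nefh at 12.9 CPM, and Pou4f2 and Pou4f3 had 0 reads.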
